A study of Bos taurus with 8 samples.

Results

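A total of 150 gene loci with their lowest transcript level in whole testes were examined among the 36801 loci of an RNA-Seq table of 8 cattle tissues. The members were drawn from the 24886 loci that carry an Ensembl transcript identifier. Of these, 20817 lay on chromosomes 1 to 29, spanned at least 300 and under 300000 bases and had no failed or too-much-data status, and 5340 of them also reached an FPKM of 5 in each of the 7 tissues other than testes. FPKM counts fragments per kilobase of transcript and 1000000 mapped fragments. For each of these 5340 loci, the lowest FPKM of the 7 other tissues plus 1 was divided by the testis FPKM plus 1, and the 150 loci with the largest quotient, called the ratio here, were taken. The ratio therefore chose the members, and their low testis level is a description and not a finding.

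One library was made from each of whole testes, nucleated blood cells, ileum, the glandular stomach (abomasum), the main forestomach (rumen), mammary/parenchyma (mammary gland below), uterus intercaruncular (uterus below) and frontal cortex. The labels of the RNA libraries give the tissue and no age, sex or treatment. The study drew its tissues from a Hereford cow and her progeny or relatives, and its list of bisulphite samples names an adult male for testes, a male fetus for rumen and females for the other 6 tissues, of which uterus and blood cells were adult and the rest juvenile. The study marks these 8 tissues as having RNA-Seq data too, and the labels of the RNA libraries do not name an animal. With 1 library for each, tissue, animal, sex and age cannot be told apart. No difference has a replicate check, and no p-value is given.

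The testis holds germ cells at successive stages of spermatogenesis inside the seminiferous tubules, together with the somatic Sertoli, peritubular and Leydig cells. Germ cells transcribe an unusually broad set of genes, and many of them are switched off in other organs. Genes that are active in most organs and low in testis are the reverse case, and they are described here. In a bulk library fewer cells of a type and less RNA per cell cannot be told apart. The table does not pair its identifiers with gene symbols, so members are given by position on the UMD3.1 assembly, their functions are not stated, and the labelled tissues were not checked against marker genes.

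Most loci of this class were not low in the testis library. Over the 5340 loci tested, the median FPKM was 29.2 in whole testes and 23.2 to 28.5 in the others. With each library divided by its summed FPKM it was 32.6 in testes, 33.6 in uterus and 16.4 to 28.9 in the other tissues. Over the 150 members, it was 5.04 in whole testes. In the other tissues the member median was 25.1 in uterus, 27.1 in the mammary gland, 27.9 in ileum, 28.6 in abomasum, 29.7 in frontal cortex, 30.1 in rumen and 43.6 in nucleated blood cells. Outside testes the members had medians within 5 FPKM of those of all loci tested, apart from nucleated blood cells, where all loci had a median of 27.6. On the log2(FPKM + 1) scale, the difference between testes and the median of the 7 other tissues had a median of -2.14 over the members and of 0.10 over all loci tested.

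**Figure D1:**
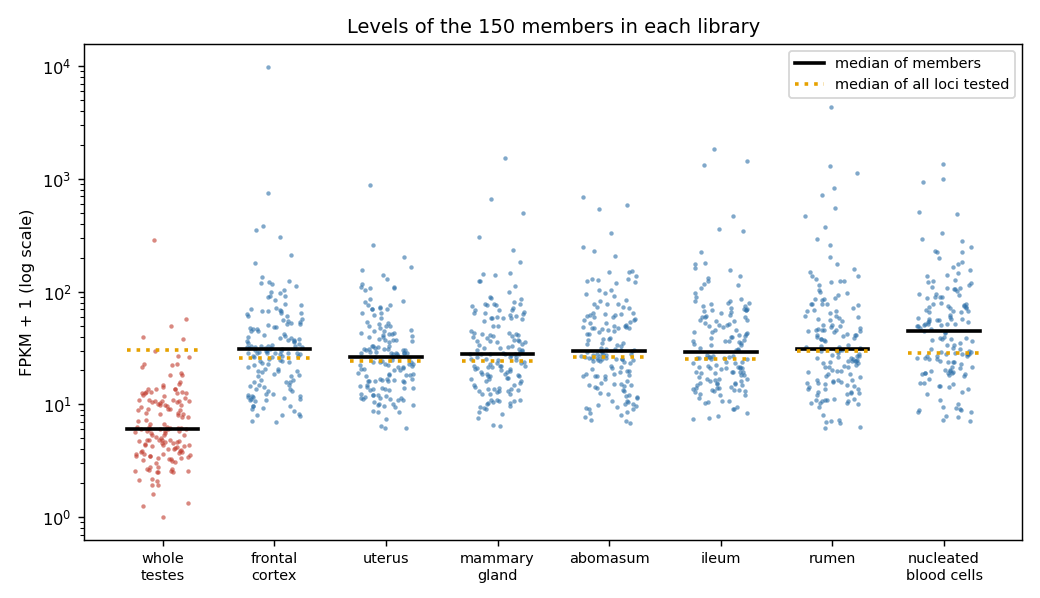
FPKM + 1 of each of the 150 members (points, log scale) in the 8 libraries, with the median of the members (black line) and of all 5340 loci tested (dotted line). In whole testes the member median of 5.04 lies under the median of 29.2 of all loci, and in the other tissues both medians lie close together except in nucleated blood cells (43.6 against 27.6).

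An FPKM of 0 was listed for 1 member, 6 members were under an FPKM of 1, 74 were under 5, and 34 reached 10 or more. The count under 1 depended on the rule, with 26 when the minimum in the other tissues was 1 or none, 1 when it was 10, 12 without the library of frontal cortex or of blood cells, and 10 without that of uterus. The highest testis FPKM of a member was 287. The lowest level among the 7 other tissues ranged from 5.12 to 691 over the members, with a median of 15.7 against 13.8 over all loci tested. The members thus span much of the range of expression, as the plot of testis level against the lowest other level shows.

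**Figure D2:**
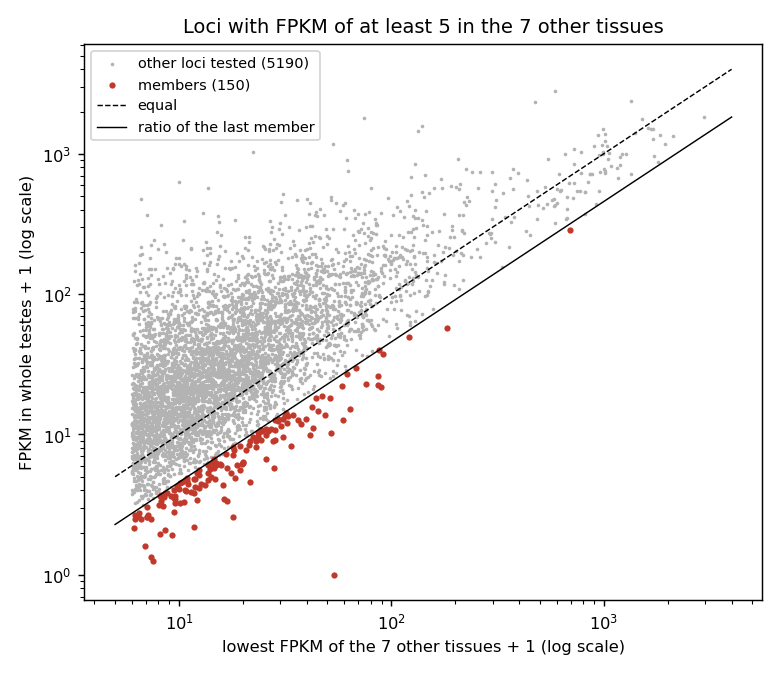
FPKM + 1 in whole testes against the lowest FPKM + 1 of the 7 other tissues for the 5340 loci tested, both on log scales; members in red, other loci in grey, with lines at equality and at the ratio of the last member (2.19). The cloud of other loci lies mostly above equality, and members follow its lower edge, with 1 member listed at 0 apart from the rest.

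Leaving out the member listed at 0, the ratio ran from 2.19 to 7.005, and 103 of the 150 members had a ratio under 3. The size rests on the pseudocount of 1, since the plain quotient of the FPKM values ran from 2.22 to 25.4 with a median of 3.04. The largest quotient came from the member with the lowest testis FPKM above 0 (0.258). On a 1000-base transcript 3 reads equal 0.399 FPKM in testes, so that value may rest on few reads. The lowest other tissue was at least 5 times testes, on the scale of FPKM + 1, for 7 members, which are all the loci past that fold among those tested (0.131%). That number became 14 with 0.1 and 1 with 10 added in place of 1, 20 with the second lowest of the other tissues as the reference, 12 with each library divided by its median, and 122 with the median of the other tissues in place of the lowest. It was 11 without the uterus library, 17 without that of frontal cortex and 18 without that of blood cells. A fold of 2 was passed by 200 loci (3.75%), so all members lie past it by construction. Testes was the lowest of the 8 tissues at 1182 loci (22.1%), and the median ratio over all loci tested was 0.582. With each other tissue taken as the low one the median ratio was 0.544 to 0.695. Frontal cortex was the lowest tissue at 27.9% of its loci, and the remaining tissues at 5.37% to 19.2%.

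At the threshold the values ran on without a gap. The last members were a locus on chromosome 2 (126676167 to 126727641) with an FPKM of 5.68 in testes against 13.6 in the lowest other tissue, and a locus on chromosome 20 (24442440 to 24442887) with 38.8 against 86.2. The next loci, which were left out, lay on chromosome 18 (63380358 to 63388728) with 371 against 811 and on chromosome 13 (59023080 to 59079795) with 6.32 against 14.9. Both members had a ratio of 2.19 and both loci left out a ratio of 2.18.

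Nucleated blood cells had more loci of this kind than testes. The same limits and the same ratio were applied with each other tissue in turn as the one that is low. In nucleated blood cells 409 of 5593 loci (7.31%) were at least 2-fold lower than in the lowest of the 7 other tissues and 219 (3.92%) at least 5-fold. In frontal cortex these counts were 216 of 5416 (3.99%) and 13 (0.24%), of which the first was close to that of testes. Past a fold of 2 there were 39 loci for rumen (0.74%), 27 for abomasum (0.519%), 11 for uterus (0.213%), 6 for mammary gland (0.116%) and 2 for ileum (0.0389%). Past a fold of 5 there were 2 for rumen (0.038%), 2 for uterus (0.0388%) and 1 each for mammary gland (0.0194%), abomasum (0.0192%) and ileum (0.0195%). The ratio of the locus at position 150 was 6.96 for blood cells, 2.21 for frontal cortex, 2.19 for testes and at most 1.44 for the others. The order of the tissues depended on the scaling. With each library divided by its median, 280 loci (5.25%) were at least 2-fold lower in testes, 423 (7.65%) in blood cells, 176 (3.32%) in frontal cortex and 56 (1.07%) in rumen. With each divided by its summed FPKM, these counts were 129 (2.6%) in testes, 407 (7.73%) in blood cells, 103 (2.08%) in frontal cortex and 420 (7.63%) in rumen, so that rumen then stood beside blood cells at a fold of 2. At a fold of 5 it had 12 loci under this scaling, and blood cells 210.

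**Figure D3:**
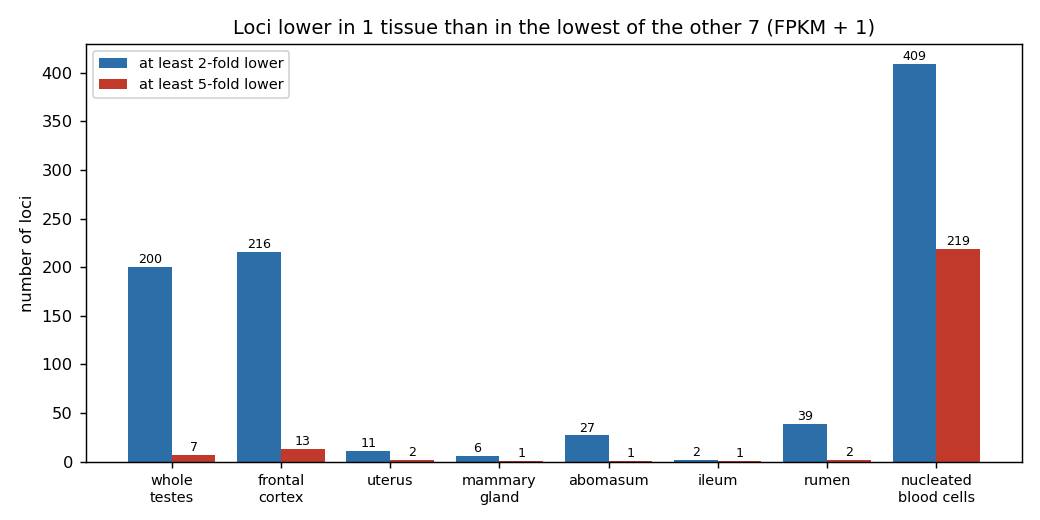
Number of loci at least 2-fold (blue) and at least 5-fold (red) lower in 1 tissue than in the lowest of the other 7, on the scale of FPKM + 1, over loci that reach an FPKM of 5 in those 7. Whole testes (200 and 7) stand beside frontal cortex (216 and 13), and nucleated blood cells (409 and 219) have the most.

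The first member by ratio is a locus on chromosome 11 (104181964 to 104185616) with the identifier ENSBTAT00000059474. Its FPKM was listed at 0 in whole testes and was 52.7 in frontal cortex, 225 in nucleated blood cells, 229 in abomasum, 259 in uterus, 303 in mammary gland, and 472 in both rumen and ileum. Among the loci tested it is the 1 locus listed at 0 in testes. However, the table holds 2 further loci with exactly the same span, and 1 of them carries this identifier too. Their FPKM in testes was 107 and 165. One of these loci was in turn listed at 0 in ileum, where the member was at 472.

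The 3 loci of this span were therefore added up. The sum was 273 in whole testes, 555 in abomasum, 768 in nucleated blood cells, 844 in ileum, 906 in frontal cortex, 992 in uterus, 1601 in the mammary gland and 2314 in rumen. Testes was still the lowest tissue, but the ratio of the sum was 2.03, below the 2.19 of the last member. With named loci that share an identifier and a span added up, a treatment chosen after the data had been seen, this locus took place 186 of 5354 and left the list. How Cufflinks divided the fragments among these loci was not tested.

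**Figure D4:**
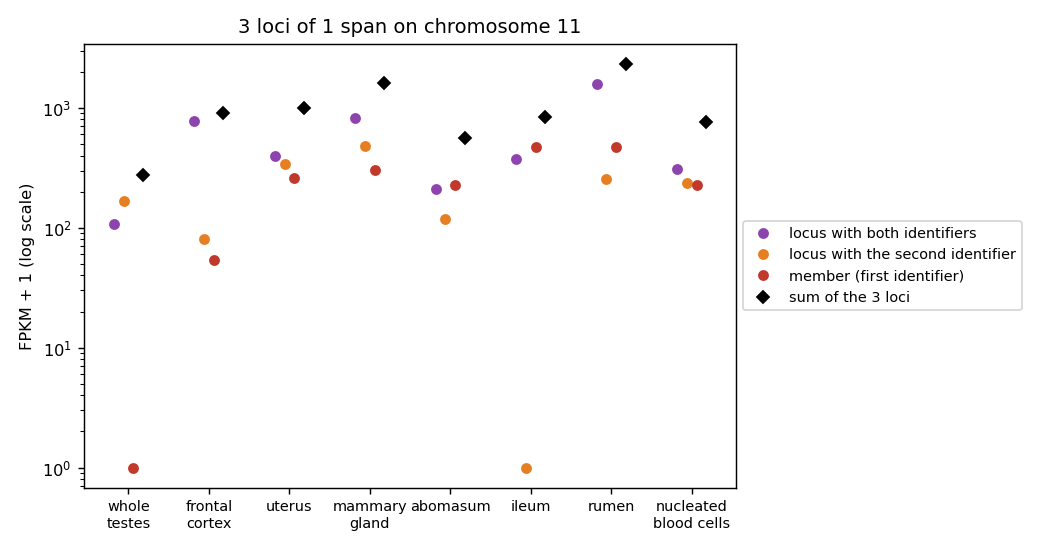
FPKM + 1 (log scale) of the 3 loci that share 1 span on chromosome 11, and of their sum, in each library. The member (red) is listed at 0 in whole testes while the other loci of the span stand at 107 and 165 there, and the sum of 273 in testes compares with 555 in abomasum, the next lowest tissue.

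The second member, on chromosome 28 (3273926 to 3274777, ENSBTAT00000063767), had the largest ratio above a testis level of 0. Its FPKM was 1.58 in whole testes, 17.1 in abomasum, 19.98 in ileum, 22.4 in mammary gland, 24.1 in frontal cortex, 28.96 in nucleated blood cells, 31.9 in uterus and 48.5 in rumen. The other tissues lay within 2.84-fold of each other and all stood well above testes. The locus spans 852 bases, so the testis value rests on at most 9.64 reads (95% Poisson interval 4.55 to 17.9, counting error only).

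A locus on chromosome 21 (27608105 to 27617305) had the lowest testis level above 0. Its FPKM was 0.258 in whole testes, 6.57 in mammary gland, 8.27 in frontal cortex, 9.47 in ileum, 11.9 in nucleated blood cells, 12.4 in uterus, 22.6 in abomasum and 38.4 in rumen. It lies on the same chromosome, within 1 Mb, as a second member with a rumen maximum (27345319 to 27353639), with an FPKM of 2.35 in testes and 60.2 in rumen. In both, rumen was the highest tissue and mammary gland the lowest of the other 7.

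A locus on chromosome 16 (13314130 to 13318292) was also close to 0 in testes but uneven elsewhere. Its FPKM was 0.341 in whole testes, 6.38 in uterus, 7.67 in frontal cortex, 22.3 in rumen, 55.3 in abomasum, 68.5 in mammary gland, 77.9 in nucleated blood cells and 156 in ileum. Ileum and blood cells were high, whereas uterus and frontal cortex were low together with testes.

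On chromosome 10, a locus from 86883739 to 86887169 had an FPKM of 1.18 in whole testes, 10.7 in frontal cortex, 12.1 in ileum, 23.4 in uterus, 37.5 in mammary gland, 55.8 in nucleated blood cells, 58.8 in abomasum and 84.3 in rumen. Another on chromosome 18 (13930005 to 13938098) had an FPKM of 9.17 in whole testes, 51.2 in frontal cortex, 60.8 in abomasum, 75.7 in uterus, 83.8 in rumen, 89.4 in mammary gland, 163 in ileum and 492 in nucleated blood cells. Frontal cortex came next above testes in both. The maximum differed, with rumen for the first and blood cells for the second.

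An even profile outside testes was seen on chromosome 2 (4111842 to 4152184). The FPKM there was 2.34 in whole testes, 15.7 in uterus, 19.3 in nucleated blood cells, 21.0 in the mammary gland, 26.1 in rumen, 27.6 in frontal cortex, 28.7 in abomasum and 34.5 in ileum. The 7 tissues stayed within 2.19-fold of each other, and this was the last member with a ratio of at least 5 (5.01). A short locus on chromosome 3 (114715216 to 114716544) was less even, with an FPKM of 0.918 in whole testes, 8.29 in abomasum, 8.73 in uterus, 10.2 in rumen, 12.2 in frontal cortex, 15.2 in mammary gland, 24.7 in ileum and 68.2 in nucleated blood cells. Blood cells stood 2.76-fold above the next tissue there.

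A further 2 members complete the leading group. On chromosome 7 (45053757 to 45063670) the FPKM was 4.79 in whole testes, 27.0 in mammary gland, 28.0 in frontal cortex, 29.3 in uterus, 30.3 in ileum, 40.3 in rumen, 65.6 in nucleated blood cells and 76.9 in abomasum. On chromosome 29 (46211737 to 46223051) it was 2.46 in whole testes, 15.4 in frontal cortex, 20.6 in rumen, 24.1 in abomasum, 27.7 in uterus, 32.7 in mammary gland, 35.5 in ileum and 126 in nucleated blood cells. Of the leading 10 members, ileum, rumen and nucleated blood cells were each the highest tissue of 3, and abomasum of 1. The first member counted for ileum on a near tie with rumen (472.3 against 471.5). With the loci of its span added up, rumen was highest (2314 against 844 in ileum).

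Which tissue was highest outside testes was not used to choose the members. Nucleated blood cells were highest for 50 members (33.3%), against 26.2% of all loci tested. Rumen was highest for 43 (28.7%, against 27.4%), frontal cortex for 23 (15.3%, against 20.9%), abomasum for 14 (9.33%, against 11.2%), ileum for 9 (6%, against 2.83%), mammary gland for 7 (4.67%, against 4.87%) and uterus for 4 (2.67%, against 6.57%). The shares of rumen, abomasum and mammary gland were near those of all loci. Blood cells stayed above the share of all loci when each library was divided by its median over the loci tested (28.7% against 20.4%) and when each was divided by its summed FPKM (25.3% against 18.6%).

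**Figure D5:**
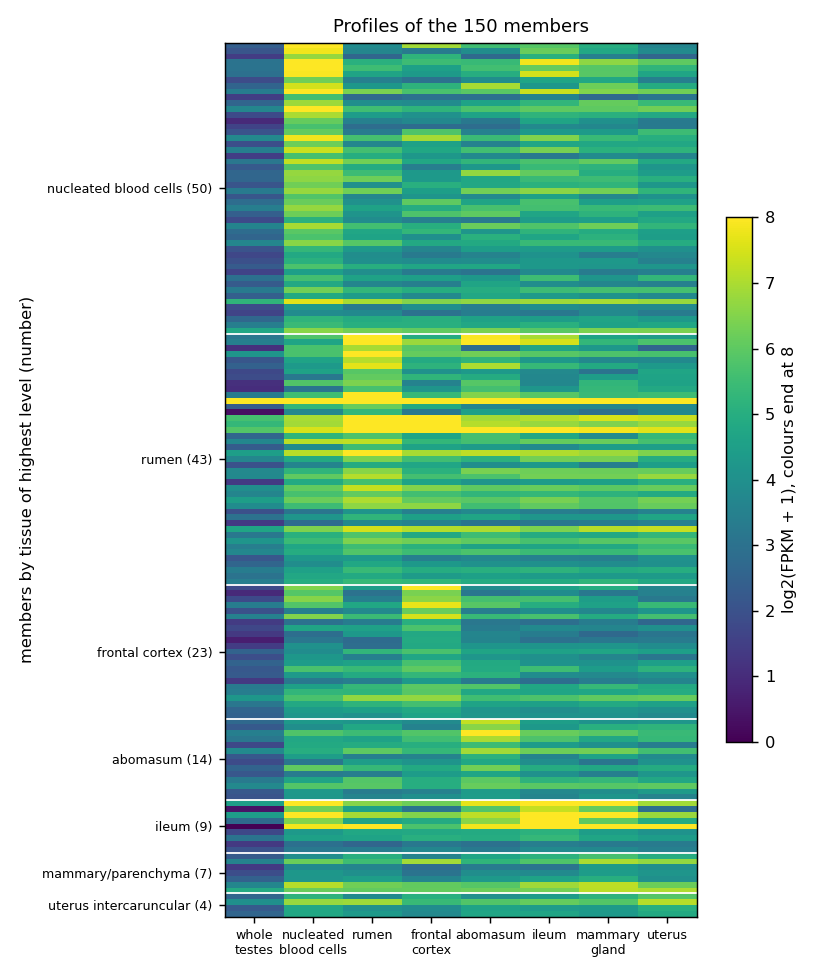
log2(FPKM + 1) of the 150 members (rows) in the 8 libraries (columns), with members grouped by the tissue of their highest level and ordered within a group by the fold between their highest and lowest other tissue. The testis column is dark in nearly all rows, and the largest groups are nucleated blood cells (50 members) and rumen (43).

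Of the members with a pronounced peak, the most had it in blood cells. The highest of the 7 tissues was at least 2-fold above the next for 37 members (24.7%), against 14.6% of all loci tested. In 17 of them (11.3% of the members) the peak was in nucleated blood cells, against 3.37% of all loci, and in 8 it was in rumen (5.33%, against 4.94%). Frontal cortex accounted for 7 (4.67%, against 4.57%), abomasum for 4 (2.67%, against 0.899%) and ileum for 1 (0.667%, against 0.187%), while mammary gland (against 0.225%) and uterus (against 0.449%) had 0. The shares in rumen and frontal cortex were near those of all loci. Under the 2 other scalings the share in blood cells was 6.67% and 6%, against 2.51% and 2.54% of all loci.

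The most extreme of these peaks, in frontal cortex, lay on chromosome 24 (2485370 to 2590645). Its FPKM was 2.41 in whole testes, 11.1 in uterus, 13.6 in abomasum, 20.4 in rumen, 22.5 in ileum, 30.1 in mammary gland, 88.8 in nucleated blood cells and 9929.5 in frontal cortex. Frontal cortex was thus 112-fold above blood cells, the next tissue. Testes was under all of the others nonetheless, by a ratio of 3.55 to uterus.

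In rumen, the strongest peak was on chromosome 19 (36871512 to 36903082), with an FPKM of 17.1 in whole testes, 50.2 in uterus, 50.7 in nucleated blood cells, 53.6 in the mammary gland, 59.1 in ileum, 67.8 in frontal cortex, 76.6 in abomasum and 827 in rumen. Here 6 tissues lay close together, with rumen 10.8-fold above the next and testes below. In abomasum it was the locus on chromosome 2 (126676167 to 126727641) that also marks the threshold, with 5.68 in testes, 13.6 to 21.5 in the other 6 tissues and 151 in abomasum. Abomasum stood 7.04-fold above the next tissue.

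Peaks in the other tissues were weaker. In nucleated blood cells the strongest was on chromosome 15 (53137073 to 53157654), with an FPKM of 1.76 in testes, 5.47 in mammary gland, 5.83 in rumen, 6.72 in abomasum, 6.86 in frontal cortex, 7.56 in uterus, 11.1 in ileum and 46.5 in blood cells. In ileum it was on chromosome 2 (130783906 to 130788357), with 5.69 in testes, 24.6 in rumen, 28.7 in frontal cortex, 29.2 in uterus, 64.3 in the mammary gland, 88.4 in blood cells, 95.5 in abomasum and 347 in ileum. The peak over the next tissue was 4.21-fold in the first and 3.63-fold in the second.

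Mammary gland and uterus led without a clear peak. On chromosome 4 (12754202 to 12767677) the FPKM was 3.84 in testes, 10.8 in frontal cortex, 14.5 in nucleated blood cells, 24.7 in abomasum, 30.1 in uterus, 31.1 in rumen, 33.9 in ileum and 48.4 in mammary gland. On chromosome 20 (11325130 to 11421153) it was 5.27 in testes, 13.3 in rumen, 15.3 in abomasum, 20.1 in ileum, 31.9 in frontal cortex, 35.2 in both mammary gland and blood cells, and 57.1 in uterus. The leading tissue was 1.43-fold and 1.62-fold above the next.

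Across the 7 other tissues, the fold between the highest and the lowest had a median of 3.78 over the members and of 3.03 over all loci tested. It was at least 5 for 57 members (38%, against 24.4% of all loci). With the median of the other tissues as the reference in place of the lowest, 113 of the 150 loci then taken had a fold of at least 5. The shares of members and of all loci were 36.7% and 22.9% with each library divided by its median. They were 29.3% and 26.9% with each divided by its summed FPKM, so the size of the difference rested on the scaling. The lowest level in this fold also entered the ratio that chose the members, so nothing is read from this difference. The tissue that was lowest among the 7 was frontal cortex for 43 members (28.7%, against 29.4%), mammary gland for 23 (15.3%, against 11%), uterus for 22 (14.7%, against 13.6%), nucleated blood cells for 19 (12.7%, against 14.3%) and rumen for 19 (12.7%, against 11.5%). Abomasum was lowest for 15 (10%, against 13.9%) and ileum for 9 (6%, against 6.29%). The lowest of these levels entered the ratio that chose the members, so nothing is read from these shares.

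Of the 3 members with the highest level in their lowest other tissue, the first was a locus on chromosome 18 (49392983 to 49396211). Its FPKM was 287 in whole testes, 691 in abomasum, 743 in frontal cortex, 883 in uterus, 1329 in ileum, 1359.9 in nucleated blood cells, 1520.05 in the mammary gland and 4349 in rumen. Even in testes it was among the more abundant loci, well above the median of 29.2, and it ranked 106 by ratio (2.40). The first locus left out at the threshold, also on chromosome 18, had rumen as its highest tissue as well, with 371 in testes and 4663 in rumen.

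On chromosome 29, a locus from 46087142 to 46090010 had an FPKM of 56.5 in whole testes, 182 in nucleated blood cells, 201 in uterus, 232 in the mammary gland, 355 in ileum, 381 in frontal cortex, 585 in abomasum and 724 in rumen. A further one on that chromosome (50689638 to 50694424) had 48.8 in testes, 120.3 in abomasum, 122 in blood cells, 136 in ileum, 163 in uterus, 181 in mammary gland, 307 in frontal cortex and 549 in rumen. Rumen was the highest tissue of each of these 3 members. The locus on chromosome 24 reached a higher level than any of them, in frontal cortex.

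The major histocompatibility complex (MHC) encodes the proteins that present peptides to T cells. Its class II molecules are made chiefly by antigen-presenting cells such as B cells, macrophages and dendritic cells, and class I molecules by most nucleated cells. In cattle the extended complex lies on chromosome 23, and the window from 25000000 to 30000000 was examined. It held 193 named loci within the limits on span and status, of which 59 were tested, and 3 of these (5.08%) were members, against 2.81% of all loci tested. Testes was the lowest tissue at 20 of the 59 (33.9%, against 22.1% of all loci), and the median ratio was 0.705 against 0.582.

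A locus from 25845390 to 25865701 in this window had an FPKM of 20.6 in whole testes, 88.3 in the frontal cortex, 109.8 in uterus, 121 in rumen, 148 in abomasum, 502 in mammary gland, 938 in nucleated blood cells and 1438 in ileum. The locus from 25351283 to 25430297 names 5 transcripts, and its FPKM was 21.9 in testes, 74.7 in frontal cortex, 91.5 in rumen, 116 in uterus, 207 in abomasum, 667 in mammary gland, 1003 in blood cells and 1828 in ileum. In both, ileum, blood cells and mammary gland stood above the other tissues, in that order, and testes was lowest. The second shares its span with 5 further loci. When all loci of that span were added up, its ratio fell from 3.31 to 1.73.

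The third member of the window, from 27457506 to 27459147, had a different profile, with an FPKM of 2.15 in testes, 7.08 in frontal cortex, 8.17 in ileum, 8.98 in uterus, 9.43 in abomasum, 12.6 in mammary gland, 12.8 in rumen and 13.5 in nucleated blood cells. Its 7 other tissues lay within 1.90-fold of each other. Leukocyte markers were not analysed here, so the part of immune cells in these levels was not tested.

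Members lay on all 29 autosomes. Chromosome 29 held 12 of 197 loci tested (6.09%), chromosome 21 held 8 of 141 (5.67%) and chromosome 7, with the most members, 14 of 383 (3.66%). The share was lowest on chromosome 13, with 2 of 213 (0.939%). Over all chromosomes it was 2.81%.

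Another member lay within 1 Mb of 52 members (34.7%), while a member lay within 1 Mb of 31.7% of the 5190 loci that were tested and not taken. The median number of tested loci within 1 Mb was 12 for members and 11 for all loci. The nearest tested neighbour of a member had a median ratio of 0.671, against 0.596 for the nearest neighbour of any locus tested. These values differed little between members and other loci.

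The largest run of neighbours held 6 members on chromosome 29 (45274382 to 46223051), among 25 loci tested there. Their ratios ran from 2.27 to 4.73, and they include the locus from 46087142 and the locus from 46211737 described above. The locus from 45841605 to 45853604 had an FPKM of 12.6 in testes, 31.5 to 88.8 in uterus, mammary gland, abomasum, rumen and ileum, 121 in frontal cortex and 224 in nucleated blood cells. Beside it, the locus from 45857518 to 45869793 had 2.27 in testes, 9.12 in abomasum, 11.4 in mammary gland, 12.9 in ileum, 15.1 in uterus, 23.03 in rumen, 24.3 in blood cells and 52.0 in frontal cortex.

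The remaining 2 members of this run were more even. From 45274382 to 45288010 testes had an FPKM of 26.1 and the other tissues 60.5 to 95.1, and from 45965742 to 45971982 it was 8.03 in testes and 22.1 to 47.6 in the others. Within the run the highest tissue was nucleated blood cells for 3 members, frontal cortex for 2 and rumen for 1, so the neighbours, all chosen for a low testis level, peaked in different tissues.

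A run of 5 members lay on chromosome 7 (12743318 to 13777976), among 15 loci tested. The FPKM in testes and the range in the other tissues were 5.11 and 13.4 to 113 for the locus from 12743318, 17.9 and 46.2 to 103 for that from 12942938, and 7.93 and 26.8 to 154 for that from 13543472. For the loci from 13548241 and from 13755274 they were 7.14 and 17.0 to 36.6, and 9.35 and 22.8 to 41.4. Each of these last 2 shares its span with a named locus, at 41.2 and 204 in testes, and with all loci of the span added up their ratios were 0.785 and 0.141, so that testes was no longer lowest. The first and the third were highest in nucleated blood cells, the second in frontal cortex and the last 2 in rumen.

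The third run, on chromosome 29 (42515806 to 44089992), held 4 members among 35 loci tested. The locus from 42515806 was at 10.04 in testes and 331 in abomasum, that from 43267468 at 2.30 in testes and 43.4 in abomasum, that from 43765115 at 2.97 in testes and 70.2 in frontal cortex, and that from 44063283 at 14.7 in testes and 139.9 in uterus, each being the highest tissue. Of the 150 members, 98 had no neighbour of this kind, 17 runs were pairs and 1 held 3 members.

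The members were shorter than the loci they were drawn from. Their span on the genome, introns included, ranged from 448 to 191971 bases with a median of 16529.5, against 23373.5 for all loci tested. An upper limit on reads was computed from the span for the 2 members under 1000 bases. For the last member, on chromosome 20, the testis value corresponded to at most 87.5 reads (95% Poisson interval 70.2 to 108), which is more than for the second member. Of the 150 members, 17 named several transcripts. No share over all loci tested is given for this count, so nothing is read from it.

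Overlapping loci bear on the members because fragments in a shared stretch have to be divided among them. A span identical to that of another locus was found for 38 members (25.3%), against 30.9% of all loci tested, a lower share among the members. The identifier of 7 members also stood at a second locus, a count given without the share over all loci tested and not read further. When the FPKM of all loci of a span was added up, a sum that can join different genes, 22 of the 38 had a ratio under that of the last member. Over all tested loci that share a span, most of which were not members, this held for 1629 of 1651. The ratio was lower for the sum than for the locus itself at 27 of the 38 (71.1%), against 666 of the 1651 tested loci that share a span (40.3%). Since the members were taken for a high ratio, nothing is read from either comparison. Named loci of the same span existed for 36 members, and in 10 of these (27.8%) such a locus was itself highest in testes, against 30.3% of all loci tested that had one.

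Some of these overlaps paired opposite profiles. These 2 examples were chosen after their values had been seen. The member on chromosome 7 from 13755274 to 13777976, at 9.35 in testes and 22.8 to 41.4 elsewhere, shares its span with a locus at 204 in testes and 3.29 to 7.89 elsewhere. The member on chromosome 19 from 34045265 to 34106178 had 1.80 in testes, 8.45 in ileum and 48.8 in nucleated blood cells, and it shares its span with a locus at 117 in testes and at most 24.8 in the other tissues, and with another at 50.3 in testes and at most 34.1 elsewhere. In both spans a second locus was highest in testes where the member was lowest, and its part in the member's value was not tested.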

How the data were processed

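Transcripts of 8 cattle tissues were sequenced, each in 1 library. According to the methods of the study, single-end reads were filtered, aligned to UMD3.1 with TopHat (TopHat2 2.0.13 in the processing notes of the submitters) and quantified with Cufflinks at default settings. FPKM is the unit of the deposited values, and by default this software also scales libraries to each other. The deposited table also holds the authors' log2 fold changes, test statistics, p-values and q-values for the 28 pairs of tissues, which were not used. The FPKM of a library at a locus was the same in every pair that included the library (0 differed). The RefSeq genes of ARS-UCD2.0 gave a symbol for 0 of 26547 identifiers, so lists of genes and markers by symbol were not analysed here. The start of a locus is counted from 0 in the table and was raised by 1.

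Members were chosen as the report states, with a pseudocount of 1. The members, the lists and the tests were chosen with earlier results of these data known. Loci named in the text were the 10 members with the largest ratio, the 2 on each side of the threshold, the 3 with the highest level in their lowest other tissue, for each other tissue the member with the largest ratio to the next tissue, the 3 largest runs of neighbours within 1 Mb and the members of the MHC window. Other loci named were chosen after their values had been seen. Shares of members are set beside those of all loci tested, with no test.

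Depth was recovered from the FPKM steps of loci of 88 to 130 bases without an identifier, with an effective length from fragments of mean 200 and SD 80 bases and a lower limit of 87 bases. Whole reads, within 0.03, were obtained for 97.7% to 100% of these loci. The scaled depth was 6082000 reads in mammary gland to 15610000 in rumen, with 10349000 in whole testes. For a 1000-base transcript, 1 FPKM equalled 7.52 reads in testes and 4.42 to 11.3 across libraries, and a floor of 3 reads to 0.399 FPKM in testes. Intervals and floors cover counting error only. Alternatives changed the pseudocount, the filter, the reference level, the scaling, the loci admitted and the libraries used. Selection and depth recovery were run on simulated data as a check of the code only. The planted loci lay further under the other tissues than most members did, and the simulated depth used the same fragment model. Python 3.11.15, pandas 2.3.3, numpy 2.4.6, scipy 1.17.1 and matplotlib 3.10.9 were used.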

Additional observations from a re-analysis of the deposited data

Results flagged for a closer look

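Loci without an identifier were left out of the list of members, and 61 of them lay within 5 kb of 42 members (28%, against 28.6% of all loci tested with such a neighbour). In testes 31 of the 61 (50.8%) were listed at 0, against 33.7% of the 1884 found near all loci tested. A total of 5 (8.2%, against 27.5%) were higher in testes than in the 7 other tissues and above a floor of 3 reads, which is what 0 reads still allow, when a transcript of the length of the span, or of 1000 bases for longer spans, is taken. On chromosome 7 the locus from 13548241 to 13571635 had an FPKM of 5.74 in testes and at most 0.614 elsewhere, 134 bases from a member at 7.93 in testes and with the span of another at 7.14. The locus on chromosome 19 from 39300124 to 39300954 had 21.5 in testes and at most 0.474 elsewhere, 3578 bases from a member at 2.64. On chromosome 25 the locus from 33671409 to 33671933 had 7.02 in testes and at most 3.42 elsewhere, 145 bases from a member at 4.68. The locus on chromosome 29 from 50560307 to 50689315 had 4.90 in testes and 0 elsewhere, 323 bases from the abundant member at 48.8. A second locus without an identifier has that same span, with 1.20 in testes and 0.465 to 5.36 elsewhere, so the span as a whole was not at 0 in the other tissues. The locus on chromosome 7 from 16974667 to 16990839 had 7.501 in testes and 0 elsewhere, 4568 bases from a member at 3.84. Whether these loci are parts of the members' transcripts was not tested.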

How the results depend on the processing

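Counts within 1.5 times the reported one are said to hold. Causes of changes were not tested unless they follow from how an alternative was made. No paired analysis was possible because the labels give 1 sample per tissue without pairs. All 22 alternative counts of members highest in nucleated blood cells held (38 to 70), as did all 23 of members within 1 Mb of another (41 to 68); leaving out the blood library gives no value for the first.

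The 7 loci at least 5-fold lower in testes became 14 with 0.1 added to each FPKM, 1 with 10 added, 20 with the second lowest and 122 with the median of the other libraries as reference, and 12 with each library divided by its median. With 1 library left out in turn they were 7 to 18, with 17 without frontal cortex, 18 without blood cells and 11 without uterus, since fewer libraries can only raise the lowest level. The list of 150 shared 96 members with the reported one with 10 added and 72 with the median as reference. With 1 library left out it shared 82 (frontal cortex) or 94 (blood cells) to 141. Members under an FPKM of 1 in testes (6) numbered 26 with a minimum of 1 or no filter, 1 with a minimum of 10, and 6 to 12 with 1 library left out (12 without frontal cortex or blood cells, 10 without uterus). Members with a fold of at least 5 across the other tissues (57) numbered 113 with the median as reference and 49 to 63 with 1 library left out. Depth limits the lowest members most: 3 reads on 1000 bases are 0.399 FPKM in testes. These alternatives were chosen after the data had been seen: adding up loci that share an identifier and a span, leaving out loci of a shared span, leaving out loci listed at 0, and the other scalings with each tissue taken as the low one.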
